A study of Homo sapiens with 9 samples.

Results

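The 36 genes described here encode the proteins that carry glucose into the cell, break it down to pyruvate and lactate, and pass pyruvate on to the mitochondrion, with 3 genes of glycogen turnover. They were taken as a list of symbols covering glucose and lactate transporters, glycolytic enzymes, subunits of pyruvate dehydrogenase and its kinases, and glycogen enzymes, and that list sets no threshold on a measured value. All 36 symbols were matched to 1 gene each among the 60664 genes of the count tables, and all 36 were among the 18264 genes with enough counts to be tested. RNA came from the MDA-MB-231 line, breast cancer cells of human origin with mesenchymal traits, collected on day 6 in 3 groups of 3 samples. The groups were cells with a scramble control hairpin (SC) in medium of 0.77 cP, SC cells in medium of 8 cP, and cells with a short hairpin against *TRPV4* (shTRPV4) in medium of 8 cP. TRPV4 is a calcium-permeable ion channel of the plasma membrane. Viscosity was raised with methylcellulose in serum-supplemented medium, and both kinds of cell were stable lentiviral lines selected with puromycin, so that the controls also carried a hairpin vector. A single control line was compared with a single knockdown line, and an effect of the line cannot be told apart from that of the hairpin. Knockdown cells at 0.77 cP were not analysed here, so no test of whether the knockdown alters the response to viscosity was made. Nothing in the sources says that samples of a group came from separate cultures, and p-values then measure only the spread between these samples.

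Glycolysis begins when glucose transporters of the SLC2A family let glucose into the cell and hexokinases trap it as a phosphate ester. Phosphofructokinase commits the sugar to the pathway, and its pace is set largely by fructose 2,6-bisphosphate made and removed by the PFKFB enzymes. Aldolase and triose phosphate isomerase then yield glyceraldehyde phosphate, from which *GAPDH*, phosphoglycerate kinase, phosphoglycerate mutase, enolase and pyruvate kinase recover ATP and produce pyruvate. Lactate dehydrogenase turns pyruvate into lactate, which leaves through SLC16A transporters, whereas pyruvate dehydrogenase sends it to the citric acid cycle unless it is shut off by the PDK kinases. Many tumour cells, including this line, make lactate from glucose in the presence of oxygen, and many genes of the pathway are known targets of hypoxia-inducible factor and of MYC.

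Libraries held between 64571681 and 103518036 counts. *TRPV4* was counted 40, 28 and 54 times in 0.77 cP SC cells, 64, 45 and 24 times in 8 cP SC cells, and 7, 1 and 13 times in shTRPV4 cells, and the knockdown was found by the test (log2 fold change -2.51 ± 0.49 (SE), adjusted p = 0.00219). Transcripts expected to be high in the line, *VIM*, *CD44* and *KRT18*, summed to between 1985 and 2182 counts per 1000000 (CPM) in the 9 samples. Behind that sum *VIM* fell in both comparisons (-0.17, adjusted p = 0.00950, with viscosity and -0.28, adjusted p = 0.000193, with the knockdown), *KRT18* fell with viscosity (-0.21, adjusted p = 0.00642) and rose with the knockdown (0.18, adjusted p = 0.0126), and *CD44* passed in neither (0.12 and 0.07). The sum of 7 immune, endothelial and fibroblast markers lay between 4.82 and 7.22 CPM in 0.77 cP SC cells, 3.44 and 3.8 CPM in 8 cP SC cells and 3.39 and 4.23 CPM in shTRPV4 cells, with *CDH5* at 0 in all samples but 1. Most of that sum was *PECAM1*, which fell with viscosity (-0.86, adjusted p = 0.00159), while *LUM* rose with the knockdown (1.09, adjusted p = 0.000917). Their part in the results was not tested. The sum of 6 luminal and epithelial markers lay between 119.8 and 129.7 CPM, with *ESR1*, *PGR* and *CDH1* too low to be tested. In bulk RNA, fewer cells of a kind and less RNA per cell cannot be told apart. Within their groups, replicate 3 of the 8 cP SC cells was the lowest sample for 23 of the 36 genes (36.5% of all genes tested were lowest there) and replicate 1 of the shTRPV4 cells was the lowest for 27 (37.2% of all genes).

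Per kilobase of annotated exon, the most abundant of the 36 genes in 0.77 cP SC cells were enzymes of the steps from triose phosphate isomerase to lactate dehydrogenase. *ENO1*, the main enolase, led with 1087 CPM per kb, followed by *GAPDH* with 989, *LDHA* with 559, *TPI1* with 535, *PKM* with 456, *PGK1* with 404 and *PGAM1* with 253. The lactate exporter *SLC16A3* stood at 121 and the glucose transporter *SLC2A1* at 117 CPM per kb. Enzymes of the steps before aldolase were lower than these, with *PFKP* at 81.2, *HK1* at 39.2, *PFKL* at 37.6, *GPI* at 32.8 and *HK2* at 27.8 CPM per kb. Less abundant genes of the later steps were also lower than *PFKP*, with *ENO2* at 51.4 and *BPGM* at 6.34 CPM per kb. The lowest members were *SLC16A1* with 0.109, *PDK4* with 0.602 and *ENO3* with 0.849 CPM per kb. *ENO1*, *PKM*, *LDHA*, *GAPDH* and *PGK1* together held between 69.0% and 70.5% of the counts of the 36 genes in each of the 9 samples.

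**Figure D1:**
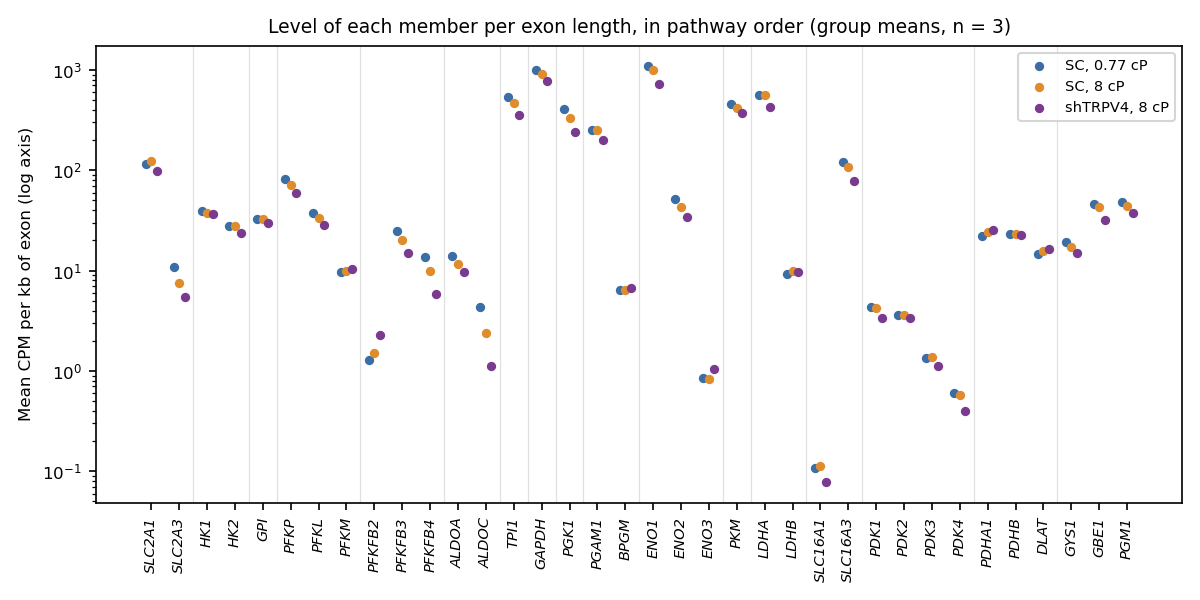
Mean level of each of the 36 genes in CPM per kilobase of exon (log axis), in pathway order, for 0.77 cP SC cells, 8 cP SC cells and shTRPV4 cells (n = 3 each). Levels run from 0.109 CPM per kb for *SLC16A1* to 1087 for *ENO1* in 0.77 cP SC cells, and the order of the 3 groups is visible for the abundant enzymes, with shTRPV4 cells lowest.

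Levels of *ALDOA* and *LDHB* are uncertain, since parts of their exons also belong to another annotated gene on the same strand. For *ALDOA*, 1639 of 3829 exon bases are shared with ENSG00000285043, and for *LDHB*, 997 of 2983 bases are shared with ENSG00000285854. HTSeq by default leaves out reads that fall on both genes, and the option used is not given in the sources used here. *ALDOA* was listed at 13.8 and *LDHB* at 9.27 CPM per kb in 0.77 cP SC cells, and these levels are not ranked here.

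The share of all counts that fell on the 36 genes was lower in each successive group. It was 2.49%, 2.49% and 2.44% in 0.77 cP SC cells, 2.34%, 2.33% and 2.19% in 8 cP SC cells, and 1.75%, 1.89% and 1.92% in shTRPV4 cells. The means were 2.47% ± 0.0285 (SD, n = 3), 2.29% ± 0.0824 and 1.85% ± 0.0885, and no sample of one group reached the range of another.

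**Figure D2:**
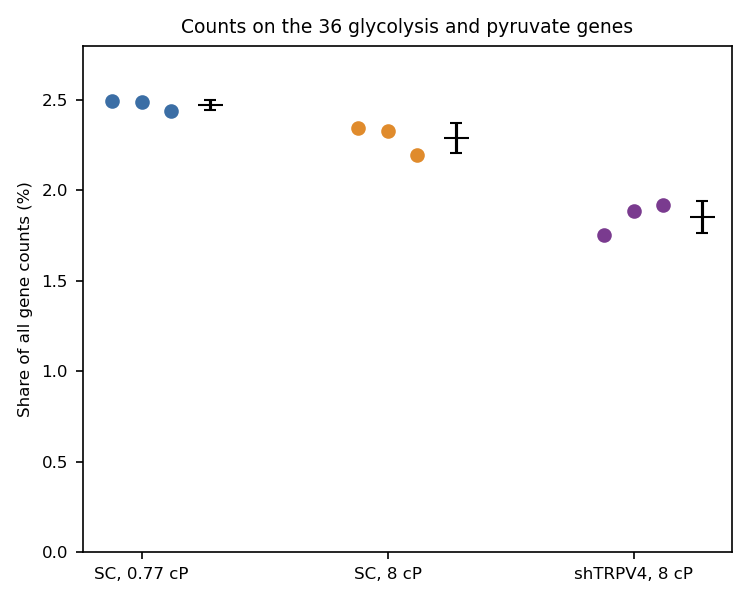
Share of all gene counts (%) that fell on the 36 genes in each of the 9 samples (points), with the mean and SD of each group (bar and whiskers, n = 3). The 3 groups do not overlap, with means of 2.47%, 2.29% and 1.85%.

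Whether 8 cP SC cells differ from 0.77 cP SC cells is the comparison of viscosity. In it, 13 of the 36 genes passed the test (edgeR's quasi-likelihood test, adjusted p below 0.05), 11 lower and 2 higher at 8 cP, where 19.3% of all genes tested passed, 9.69% lower and 9.57% higher. The lower genes were *SLC2A3*, *PFKP*, *PFKL*, *PFKFB3*, *PFKFB4*, *ALDOA*, *ALDOC*, *TPI1*, *PGK1*, *ENO2* and *GYS1*, and the higher genes were *PFKFB2* and *PDHA1*. Log2 fold changes of the 36 genes ran from -0.86 (*ALDOC*) to 0.23 (*PFKFB2*) with a median of -0.061, beside -0.0065 over all genes tested. The genes were counted more deeply than most, with a median mean count of 10757 against 1049.8 over all genes tested, so that smaller differences could pass. Only *ALDOC*, *PFKFB3*, *PFKFB4* and *SLC2A3* passed in each of 9 fits with a sample left out. The number that passed was 4 without replicate 3 of the 8 cP SC cells, 5 without replicate 1 and 6 without replicate 2 of the 0.77 cP SC cells, where 7.56%, 7.58% and 10.3% of all genes passed.

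Whether shTRPV4 cells differ from SC cells at the same viscosity is the comparison of the knockdown. Here 26 of the 36 genes passed, 24 lower and 2 higher in shTRPV4 cells, where 20.0% of all genes tested passed, 11.0% lower and 9.02% higher. The 2 higher genes were *PFKFB2* and *ENO3*. The 10 genes that did not pass were *HK1*, *GPI*, *PFKM*, *BPGM*, *LDHB*, *SLC16A1*, *PDK2*, *PDHA1*, *PDHB* and *DLAT*. Log2 fold changes ran from -1.10 (*ALDOC*) to 0.60 (*PFKFB2*) with a median of -0.27, beside 0.00064 over all genes tested. In the 9 leave-one-out fits, between 23 and 25 of the 36 genes passed, where 11.7% to 20.5% of all genes passed. Of the 36 genes, 22 passed in each of these fits. The comparison of viscosity and the comparison of the knockdown share the 8 cP SC samples, with opposite sign, so their values are given side by side for each gene without a test of likeness.

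**Figure D3:**
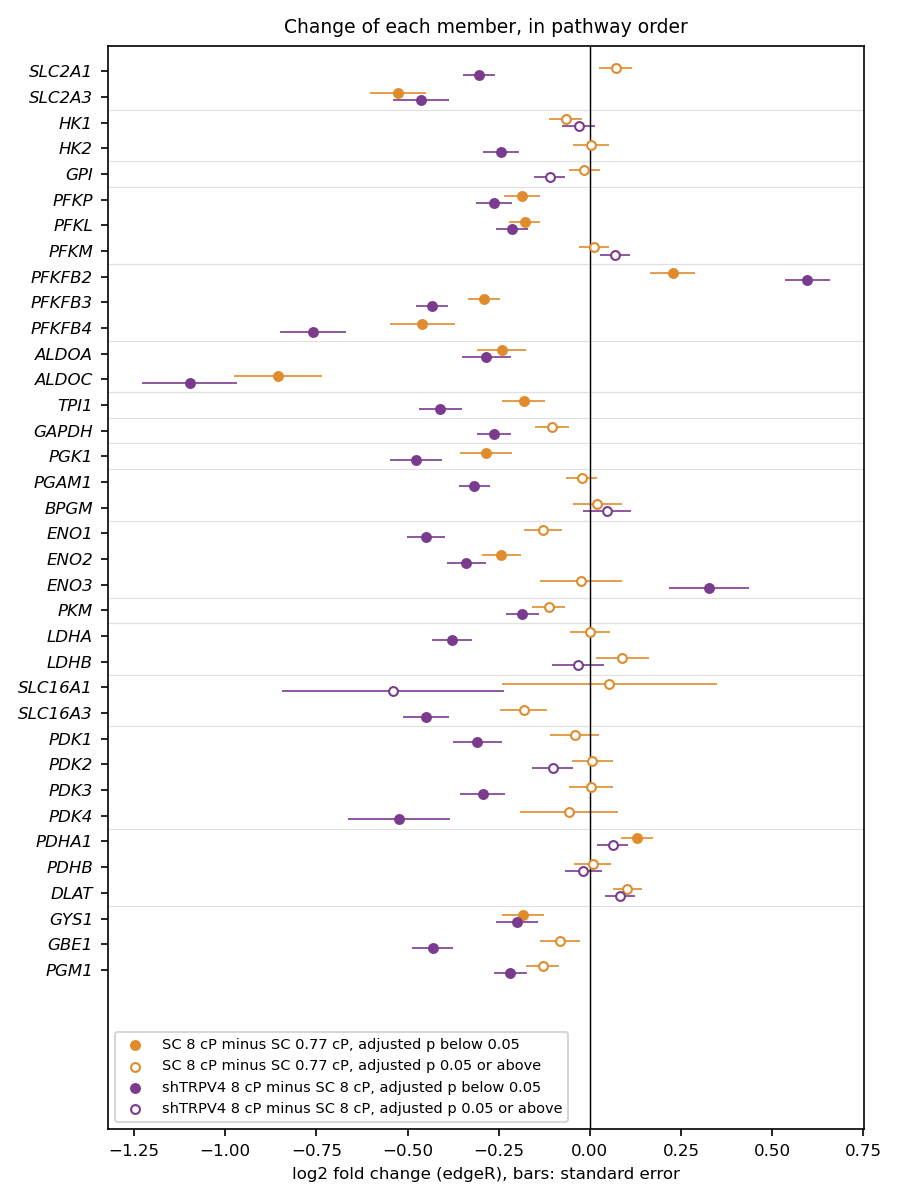
Log2 fold change of each gene (points) with its standard error (bars), in pathway order from glucose transport to glycogen, for 8 cP SC cells against 0.77 cP SC cells (orange) and shTRPV4 cells against 8 cP SC cells (purple). Filled points have an adjusted p below 0.05. Most purple points lie left of 0 (24 filled), *PFKFB2* lies right of 0 in both comparisons, and *ALDOC* lies farthest left in both.

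*SLC2A1*, the main glucose transporter here (chr1:42925353-42958893), did not pass with viscosity and was lower with the knockdown. It stood at 759, 765 and 789.5 CPM in 0.77 cP SC cells, 823, 814 and 793 CPM in 8 cP SC cells and 630.4, 653 and 683 CPM in shTRPV4 cells, each group in the order of replicates 1 to 3. No group overlapped another, but the higher level of 8 cP SC cells did not pass the test (log2 fold change 0.07 ± 0.044, adjusted p = 0.288), while it was lower by 19.1% in shTRPV4 cells (-0.31 ± 0.044, adjusted p = 0.000191). *SLC2A3*, a high-affinity glucose transporter (chr12:7919230-8019007), was counted less often and fell in both comparisons. Its levels were 78.6, 85.9 and 69.1 CPM, then 57.8, 54.8 and 49.4 CPM, then 36.3, 42.0 and 39.3 CPM in the same order of groups. The groups did not overlap, and the fall was 30.6% with viscosity (-0.53 ± 0.076, adjusted p = 0.000463) and 27.4% with the knockdown (-0.46 ± 0.077, adjusted p = 0.00062).

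Of the hexokinases, which phosphorylate glucose, the more abundant *HK1* did not pass in either comparison. *HK1* was measured at 265, 259 and 286 CPM in 0.77 cP SC cells, at 265, 253 and 255 CPM in 8 cP SC cells and at 257, 248 and 252 CPM in shTRPV4 cells, where 8 cP SC cells overlapped both other groups and shTRPV4 cells lay below 0.77 cP SC cells. *HK2*, the inducible form that binds mitochondria in many tumours, lay between 156 and 177 CPM in both SC groups and between 136 and 142 CPM in shTRPV4 cells. *HK2* was not changed by the test with viscosity (0.00 ± 0.049, adjusted p = 0.970) and fell by 15.5% with the knockdown (-0.24 ± 0.049, adjusted p = 0.00246). *GPI*, which turns glucose phosphate into fructose phosphate, passed in neither comparison (-0.02 and -0.11).

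Among the 3 phosphofructokinase genes, *PFKP* and *PFKL* were lower in both comparisons, and *PFKM* passed in neither (0.01 and 0.07). *PFKP*, the platelet form and the most abundant here, was measured at 645, 623 and 625 CPM, then 566, 578 and 520.3 CPM, then 440.4, 461 and 486 CPM in 0.77 cP SC cells, 8 cP SC cells and shTRPV4 cells. The 3 groups did not overlap, with log2 fold changes of -0.19 ± 0.05 with viscosity (adjusted p = 0.0184) and -0.26 ± 0.05 with the knockdown (adjusted p = 0.0018). *PFKL*, the liver form, fell by 0.18 (adjusted p = 0.0107) and by 0.21 (adjusted p = 0.00277) on the log2 scale. With viscosity, *PFKP* did not pass without replicate 1 or 2 of the 0.77 cP SC cells or replicate 3 of the 8 cP SC cells (adjusted p = 0.0915, 0.0566 and 0.143), and *PFKL* did not pass without replicate 1 of the 0.77 cP SC cells or replicate 3 of the 8 cP SC cells (adjusted p = 0.0737 and 0.0843).

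The PFKFB genes encode the bifunctional enzymes that make and remove the fructose 2,6-bisphosphate that activates phosphofructokinase. All 3 passed in both comparisons, where 19.3% of all genes tested passed with viscosity and 20.0% with the knockdown. *PFKFB2* changed in the opposite direction to *PFKFB3* and *PFKFB4*. *PFKFB3* (chr10:6144934-6254644), whose product mainly makes the activator, was measured at 150.4, 149.8 and 152 CPM in 0.77 cP SC cells, 125, 127 and 118 CPM in 8 cP SC cells and 88.4, 92.8 and 92.9 CPM in shTRPV4 cells. The groups were far apart relative to their spread, and *PFKFB3* fell by 18.2% with viscosity (-0.29 ± 0.043, adjusted p = 0.000579) and by 25.9% with the knockdown (-0.43 ± 0.043, adjusted p = 6.19e-06). *PFKFB4* (chr3:48517684-48562015), described as inducible by low oxygen, was measured at 85.9, 84.8 and 79.6 CPM, then 63.1, 66.4 and 52.5 CPM, then 30.3, 38.0 and 39.2 CPM. It fell by 27.3% (-0.46 ± 0.088, adjusted p = 0.00316) and by 40.9% (-0.76 ± 0.09, adjusted p = 3.23e-05), with no overlap between groups, and 298 of its 6107 exon bases are shared with *UCN2* on the same strand.

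*PFKFB2* (chr1:207034366-207081024), the form known from heart, rose. Its levels were 13.2, 12.9 and 13.2 CPM in 0.77 cP SC cells, 15.3, 14.8 and 15.9 CPM in 8 cP SC cells and 24.7, 22.9 and 22.0 CPM in shTRPV4 cells. All 8 cP SC samples lay above those at 0.77 cP and all shTRPV4 samples lay above both, with rises of 17.0% (0.23 ± 0.062, adjusted p = 0.0197) and 51.2% (0.60 ± 0.061, adjusted p = 7.43e-06). The rise with viscosity did not pass without replicate 1 or 2 of the 0.77 cP SC cells (adjusted p = 0.0581 and 0.0580) or replicate 3 of the 8 cP SC cells (adjusted p = 0.0791). On the opposite strand, 315 of its 10176 exon bases are shared with *YOD1*.

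*ALDOC* (chr17:28573115-28576948, minus strand), the aldolase best known from brain, showed the largest fall of the 36 genes in both comparisons. It was measured at 12.5, 12.1 and 9.56 CPM in 0.77 cP SC cells, 6.91, 6.56 and 5.34 CPM in 8 cP SC cells and 2.50, 3.04 and 3.26 CPM in shTRPV4 cells. The groups were separate, with a fall of 44.7% with viscosity (-0.86 ± 0.12, adjusted p = 0.000368) and of 53.3% with the knockdown (-1.10 ± 0.13, adjusted p = 3.34e-05). *ALDOA*, the muscle and general form, was listed at 55.5, 53.4 and 50.1 CPM, then 46.8, 44.5 and 43.0 CPM, then 33.9, 35.1 and 41.3 CPM. The *ALDOA* groups did not overlap, and the counts that were assigned to *ALDOA* fell by 0.24 ± 0.067 (adjusted p = 0.0213) and by 0.28 ± 0.068 (adjusted p = 0.00805) on the log2 scale, while its overlapping gene ENSG00000285043 held only 263 to 506 counts per sample. With viscosity, *ALDOA* did not pass without replicate 1 or 2 of the 0.77 cP SC cells (adjusted p = 0.121 and 0.0747) or replicate 2 or 3 of the 8 cP SC cells (adjusted p = 0.0684 and 0.112).

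*TPI1* (chr12:6867119-6870948), which interconverts the triose phosphates, was measured at 1496, 1451 and 1385 CPM in 0.77 cP SC cells, 1289.7, 1321 and 1209 CPM in 8 cP SC cells and 866, 989 and 1021 CPM in shTRPV4 cells. The groups did not overlap, and *TPI1* fell by 24.7% with the knockdown (-0.41 ± 0.06, adjusted p = 0.000204). The fall with viscosity was smaller (-0.18 ± 0.06, adjusted p = 0.0443). It was lost without replicate 1 or 2 of the 0.77 cP SC cells (adjusted p = 0.188 and 0.133), without any sample of the 8 cP SC cells (adjusted p = 0.0997, 0.0719 and 0.224 for replicates 1, 2 and 3), and without replicate 2 of the shTRPV4 cells (adjusted p = 0.0607). Pseudogenes of *TPI1* held counts equal to 2.18% of its own.

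In the phase from glyceraldehyde phosphate to pyruvate, with 8 genes, 2 were lower with viscosity and 6 were lower and 1 higher with the knockdown, where 9.69% of all genes tested fell with viscosity and 11.0% fell and 9.02% rose with the knockdown. *GAPDH* lay between 2322 and 2421 CPM in 0.77 cP SC cells, 2124 and 2250.3 CPM in 8 cP SC cells and 1761 and 1920.4 CPM in shTRPV4 cells, a difference that did not pass with viscosity (-0.10 ± 0.047, adjusted p = 0.135) and a fall of 16.6% with the knockdown (-0.26 ± 0.047, adjusted p = 0.00108). *PGK1*, which makes the first ATP of this phase, was measured at 2238, 2249 and 2107 CPM, then 1866, 1898 and 1648 CPM, then 1135, 1369 and 1382 CPM. Its groups did not overlap, and it fell by 17.9% (-0.29 ± 0.071, adjusted p = 0.0122) and by 28.2% (-0.48 ± 0.071, adjusted p = 0.000249). With viscosity *PGK1* did not pass without replicate 1 or 2 of the 0.77 cP SC cells (adjusted p = 0.0661 and 0.0579) or replicate 3 of the 8 cP SC cells (adjusted p = 0.0901).

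*PGAM1*, the phosphoglycerate mutase of most tissues (chr10:97426191-97433444), was measured at 652, 635 and 642 CPM in 0.77 cP SC cells, 627, 642 and 631 CPM in 8 cP SC cells and 487, 509 and 529 CPM in shTRPV4 cells. The SC groups overlapped (-0.02 ± 0.043, adjusted p = 0.758), whereas every shTRPV4 sample lay below them (-0.32 ± 0.043, adjusted p = 0.00011). *BPGM*, which shunts the intermediate into the regulator of haemoglobin in red cells, passed in neither comparison (0.02 and 0.05).

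*ENO1* (chr1:8861000-8879190), the most abundant of the 36 genes by length, was measured at 5799, 5664 and 5551 CPM in 0.77 cP SC cells, 5309, 5259 and 5006 CPM in 8 cP SC cells and 3512, 3912 and 3978 CPM in shTRPV4 cells. No groups overlapped, but the lower level with viscosity did not pass (-0.13 ± 0.052, adjusted p = 0.10), and the fall with the knockdown was 26.8% (-0.45 ± 0.052, adjusted p = 2.62e-05). With viscosity *ENO1* did pass with only the 6 samples of the comparison (adjusted p = 0.0351) and without replicate 1 of the shTRPV4 cells (adjusted p = 0.0318). *ENO2*, the enolase best known from neurons, was measured at 226, 217 and 217 CPM, then 196, 191 and 171 CPM, then 139, 153 and 149.8 CPM. *ENO2* was lower in each successive group without overlap (-0.24 ± 0.054, adjusted p = 0.00665, and -0.34 ± 0.054, adjusted p = 0.000414), and the fall with viscosity did not pass without replicate 3 of the 8 cP SC cells (adjusted p = 0.0575). *ENO3*, the muscle enolase, is the second gene that was higher in shTRPV4 cells, at 4.13 to 5.15 CPM against 3.23 to 3.89 CPM in 8 cP SC cells (0.33 ± 0.11, adjusted p = 0.0483). That call passed in 1 of the 9 leave-one-out fits, the fit without replicate 1 of the shTRPV4 cells (adjusted p = 0.0349), and the adjusted p reached 0.227 without replicate 2 of the shTRPV4 cells, where the change was 0.22. It did not pass with upper quartile scaling or with only the 6 samples either (adjusted p = 0.0530 and 0.0619). *PKM*, pyruvate kinase, lay between 3804 and 3985 CPM, 3506 and 3726 CPM, and 3074 and 3256 CPM in the 3 groups, which did not pass with viscosity (-0.11 ± 0.045, adjusted p = 0.0937) and fell by 12.1% with the knockdown (-0.19 ± 0.045, adjusted p = 0.00933), a fall that did not pass without replicate 1 of the 8 cP SC cells (adjusted p = 0.0593). Gene counts do not separate the *PKM* splice forms.

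*LDHA* (chr11:18394560-18408425), the subunit of lactate dehydrogenase that favours lactate formation, did not pass with viscosity and was lower with the knockdown. It was measured at 3291, 3449.9 and 3356 CPM in 0.77 cP SC cells, 3409, 3453 and 3237 CPM in 8 cP SC cells and 2370.1, 2654 and 2746 CPM in shTRPV4 cells. The SC groups overlapped fully (0.00 ± 0.055, adjusted p = 0.998), and all shTRPV4 samples lay below them, a fall of 23.1% (-0.38 ± 0.055, adjusted p = 0.000193). *LDHB*, the other subunit, passed in neither comparison (0.09 and -0.03), on the counts left to it beside its overlapping gene. *SLC16A3*, the lactate exporter of glycolytic cells (chr17:82217934-82261129), was measured at 1138, 1135 and 1092 CPM, then 1031, 1034 and 902 CPM, then 668, 712 and 793 CPM. Its groups did not overlap, and the fall of 26.8% with the knockdown passed (-0.45 ± 0.064, adjusted p = 0.000168). With viscosity the difference was just short of the threshold (-0.18 ± 0.064, adjusted p = 0.0576) and passed without replicate 1 or 3 of the shTRPV4 cells (adjusted p = 0.0237 and 0.0312), with only the 6 samples (adjusted p = 0.0210), with no filter on low counts (adjusted p = 0.00352) and under DESeq2 (adjusted p = 0.0394). *SLC16A1*, another lactate transporter, was nearly silent at 0.306 to 0.892 CPM and passed in neither comparison.

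**Figure D4:**
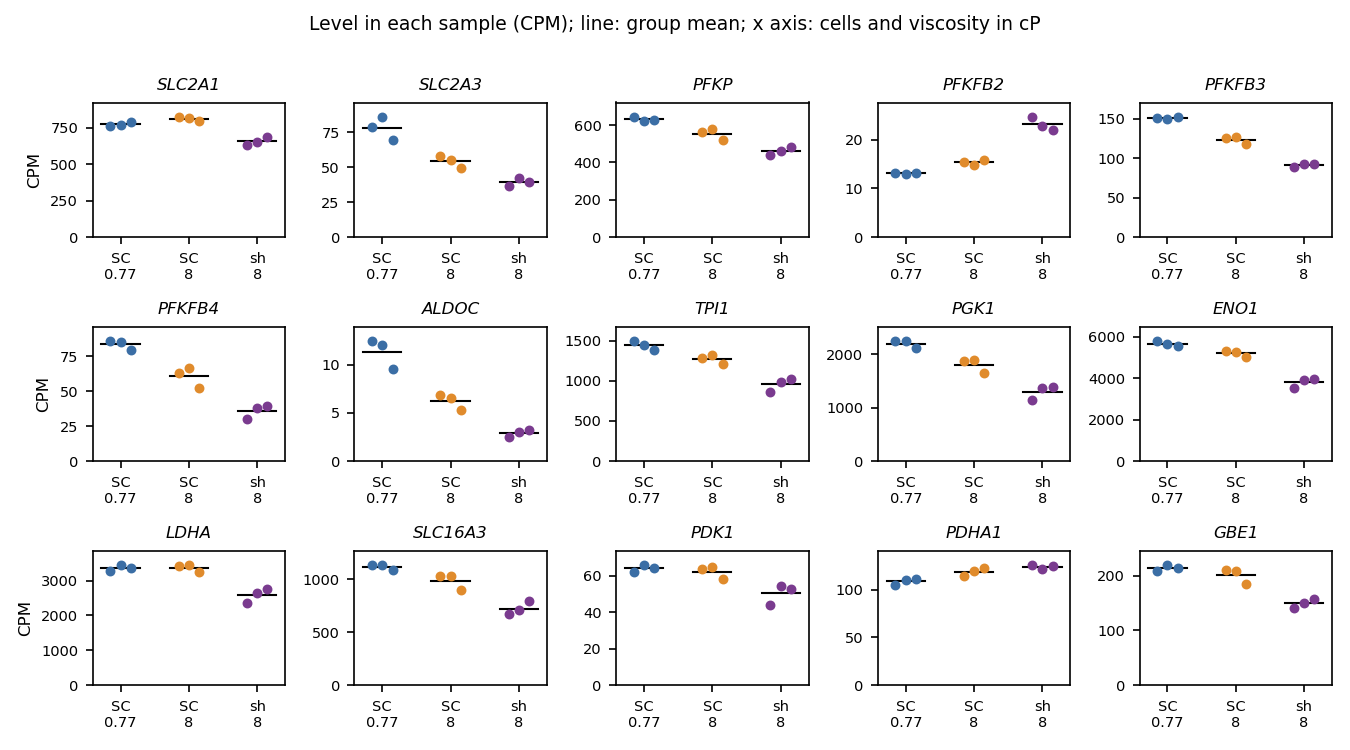
Level in CPM of 15 of the genes in each of the 9 samples (points) with the mean of each group (line), for 0.77 cP SC cells, 8 cP SC cells and shTRPV4 cells. *SLC2A3*, *PFKFB3*, *PFKFB4* and *ALDOC* step down from group to group, *SLC2A1*, *LDHA*, *PDK1* and *GBE1* are lower in shTRPV4 cells than in both SC groups, *PFKFB2* steps up from group to group, and *PDHA1* is higher in 8 cP than in 0.77 cP SC cells and overlaps between 8 cP SC and shTRPV4 cells.

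The PDK kinases shut off pyruvate dehydrogenase by phosphorylation. None of the 4 passed with viscosity (log2 fold changes from -0.056 to 0.0072), where 19.3% of all genes tested passed. With the knockdown 3 of the 4 fell, where 11.0% of all genes tested fell. *PDK1*, the most abundant per kilobase of all exons (*PDK2* led per kilobase of the longest transcript), was measured at 62.1, 65.9 and 64.1 CPM in 0.77 cP SC cells, 63.7, 64.7 and 58.2 CPM in 8 cP SC cells and 44.2, 54.2 and 52.4 CPM in shTRPV4 cells. The SC groups overlapped and the shTRPV4 samples lay below both, with a log2 fold change of -0.31 ± 0.067 (adjusted p = 0.00434). *PDK3* fell by 0.29 ± 0.061 (adjusted p = 0.00332) and the weakly expressed *PDK4* by 0.52 ± 0.14 (adjusted p = 0.0149) on the log2 scale. The *PDK4* call was lost without replicate 3 of the 8 cP SC cells (-0.36, adjusted p = 0.0824) and without replicate 2 of the shTRPV4 cells (adjusted p = 0.0512). *PDK2* did not pass (-0.10), and 2113 of its 5471 exon bases are shared with *SAMD14* on the opposite strand.

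Of the pyruvate dehydrogenase subunits, *PDHB* was measured at 106, 115 and 105 CPM in 0.77 cP SC cells, 106, 111 and 111 CPM in 8 cP SC cells and 101, 110.1 and 112 CPM in shTRPV4 cells. These overlapped throughout (0.01 and -0.02). *PDHA1*, the catalytic alpha subunit, lay between 105 and 112 CPM in 0.77 cP SC cells and between 115 and 123 CPM in 8 cP SC cells, a rise of 9.36% at the edge of the threshold (0.13 ± 0.043, adjusted p = 0.0482). It did not pass with upper quartile scaling, with no filter on low counts or with only the 6 samples (adjusted p = 0.0622, 0.0908 and 0.0543), nor without replicate 1 or 2 of the 0.77 cP SC cells (adjusted p = 0.160 and 0.0880), replicate 2 or 3 of the 8 cP SC cells (adjusted p = 0.102 and 0.167) or replicate 2 or 3 of the shTRPV4 cells (adjusted p = 0.0671 and 0.0536). *DLAT*, the acetyltransferase subunit, did not pass (0.10 and 0.08), although it passed with viscosity under DESeq2 (0.11, adjusted p = 0.0420). Exon bases shared on the opposite strand number 956 of 4953 for *PDHA1*, with *MAP3K15*, and 1004 of 7550 for *DLAT*, with *PIH1D2*, and whether HTSeq counted by strand is not given in the sources used here.

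All 3 glycogen genes were lower with the knockdown, where 11.0% of all genes tested fell. Of 13 other tested genes listed for glycogen, 2 rose and 4 fell with the knockdown. *GBE1*, the branching enzyme (chr3:81489703-81761645), was measured at 208, 219.5 and 213 CPM in 0.77 cP SC cells, 211, 209 and 185 CPM in 8 cP SC cells and 141, 149.9 and 158 CPM in shTRPV4 cells. SC groups overlapped (-0.08 ± 0.056, adjusted p = 0.334), and *GBE1* fell by 25.8% in shTRPV4 cells (-0.43 ± 0.056, adjusted p = 8.23e-05). *PGM1*, which joins glycogen to glycolysis by moving the phosphate of glucose, was measured at 191, 196 and 199 CPM, then 183, 181 and 171 CPM, then 148, 153 and 159 CPM. It fell with the knockdown (-0.22 ± 0.044, adjusted p = 0.00284), and the difference with viscosity did not pass (-0.13 ± 0.044, adjusted p = 0.0519). Among the leave-one-out fits, *PGM1* passed with viscosity only without replicate 1 of the shTRPV4 cells (adjusted p = 0.0337). *PGM1* also passed with viscosity under upper quartile scaling, a minimum of 10 counts, only the 6 samples and DESeq2 (adjusted p = 0.0394, 0.0444, 0.0374 and 0.0483). *GYS1*, glycogen synthase, fell by 0.18 ± 0.057 (adjusted p = 0.0357) and by 0.20 ± 0.057 (adjusted p = 0.0227) on the log2 scale. The first call was lost without replicate 1 or 2 of the 0.77 cP SC cells (adjusted p = 0.197 and 0.0615), replicate 2 or 3 of the 8 cP SC cells (adjusted p = 0.0888 and 0.222, with a change of -0.12 without replicate 3) or replicate 2 of the shTRPV4 cells (adjusted p = 0.0523). The second was lost without replicate 1 or 2 of the 8 cP SC cells (adjusted p = 0.125 and 0.0733) or replicate 1 or 2 of the shTRPV4 cells (adjusted p = 0.0514 and 0.0757).

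Promoters of 4 of these genes are shown because the 36 genes include many known targets of hypoxia-inducible factor, whose binding element has the core ACGTG, and because they cover the largest fall (*ALDOC*), an abundant enzyme lower in both comparisons (*PGK1*), an enzyme that passed with the knockdown but not with viscosity (*LDHA*) and a subunit that passed in no comparison (*PDHB*). The sequences are those before the transcription start in RefSeq (GRCh38.p14), up to 250 bases and without any base in an annotated exon. Capitals mark ACGTG or its reverse complement CACGT. *LDHA* had 2 starts, and the start with the most matches was chosen, so its number of matches depends on that choice. The other *LDHA* start had 0 matches in its 300 bases. Each of the other genes shown had 1 start. The windows are chrX:78103998-78104247 on the plus strand for *PGK1*, which lies inside the annotated gene because some of its transcripts start farther upstream, chr11:18394313-18394559 on the plus strand for *LDHA*, chr17:28576949-28577145 on the minus strand for *ALDOC* and chr3:58433858-58434082 on the minus strand for *PDHB*.
PGK1: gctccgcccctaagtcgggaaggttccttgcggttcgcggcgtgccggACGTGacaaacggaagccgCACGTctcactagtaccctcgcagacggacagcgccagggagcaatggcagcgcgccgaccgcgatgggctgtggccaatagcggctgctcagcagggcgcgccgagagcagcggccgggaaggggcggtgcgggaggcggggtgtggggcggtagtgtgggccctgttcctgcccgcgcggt
LDHA: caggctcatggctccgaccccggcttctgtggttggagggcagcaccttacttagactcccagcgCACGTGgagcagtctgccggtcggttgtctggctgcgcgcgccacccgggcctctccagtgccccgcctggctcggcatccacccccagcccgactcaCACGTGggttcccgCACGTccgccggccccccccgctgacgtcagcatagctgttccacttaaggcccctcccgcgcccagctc
ALDOC: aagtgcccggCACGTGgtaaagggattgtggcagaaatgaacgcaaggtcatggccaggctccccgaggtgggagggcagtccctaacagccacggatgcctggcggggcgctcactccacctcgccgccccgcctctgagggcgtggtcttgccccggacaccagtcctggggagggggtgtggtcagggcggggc
PDHB: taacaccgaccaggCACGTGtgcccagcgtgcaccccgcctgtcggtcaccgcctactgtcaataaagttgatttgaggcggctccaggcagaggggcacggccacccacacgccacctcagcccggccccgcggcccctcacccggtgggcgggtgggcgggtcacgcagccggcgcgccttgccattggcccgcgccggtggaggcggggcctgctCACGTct
Capitals form 2 runs in *PGK1*, 3 in *LDHA*, 1 in *ALDOC* and 2 in *PDHB*. Both *ALDOC* and *PDHB* hold the letters.

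Searched on both strands in 300 bases around each start, ACGTG was found in 39.1% of 64 promoters of these genes, against 21.4% of all 35116 promoters in the table. Of the 33 members with a promoter in the table, 21 had at least 1 promoter with it. The same share over all genes was not taken, and the 21.4% per promoter is not its counterpart. The E-box CACGTG, which holds ACGTG and is bound by MYC among other factors, was found in 12.5% against 7.26%. Promoters of 1 gene overlap each other, so the 64 are not independent, and a match of letters is a description of the sequence. No promoter sequence was used for *SLC2A3*, *PFKFB2* and *SLC16A1*.

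Isozymes of a step were compared within each library as the log2 ratio of their counts, which does not depend on how libraries are scaled. With 3 samples against 3, the exact permutation test (two-sided) cannot give a p below 0.1, so the ratios are descriptions. *ALDOC* fell relative to *ALDOA* in both comparisons, from a mean ratio of -2.23 ± 0.14 (SD, n = 3) in 0.77 cP SC cells to -2.84 ± 0.14 in 8 cP SC cells and -3.65 ± 0.12 in shTRPV4 cells, with no overlap between groups (exact p = 0.1 for each step, the smallest it can give). The level of *ALDOA* carries the limit given above, and so does the level of this ratio. *SLC2A3* fell relative to *SLC2A1* with viscosity (-3.31 ± 0.18 to -3.91 ± 0.087), whereas SC and shTRPV4 samples at 8 cP overlapped (-4.06 ± 0.093 in the latter). *HK2* relative to *HK1* was a little higher at 8 cP in SC cells, by 0.071, and lower in shTRPV4 cells, by 0.21, each without overlap. *PFKFB4* relative to *PFKFB3* overlapped with viscosity and was 0.33 lower with the knockdown without overlap.

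*LDHA* relative to *LDHB* overlapped between the SC groups (6.93 ± 0.065 and 6.84 ± 0.10) and was lower in shTRPV4 cells (6.50 ± 0.044), where the level of *LDHB* carries the limit above. *ENO2* relative to *ENO1* moved by -0.12 with viscosity and by 0.11 with the knockdown, so that shTRPV4 cells and 0.77 cP SC cells overlapped. *PDK1* to *PDK3* and *SLC16A3* to *SLC16A1* overlapped in all comparisons. The ratio of *PFKFB2* to *PFKFB3*, added after the values had been seen, was -3.52 ± 0.010, -3.01 ± 0.10 and -1.98 ± 0.12 in the 3 groups, or 1.43 times higher with viscosity and 2.04 times higher with the knockdown, without overlap.

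**Figure D5:**
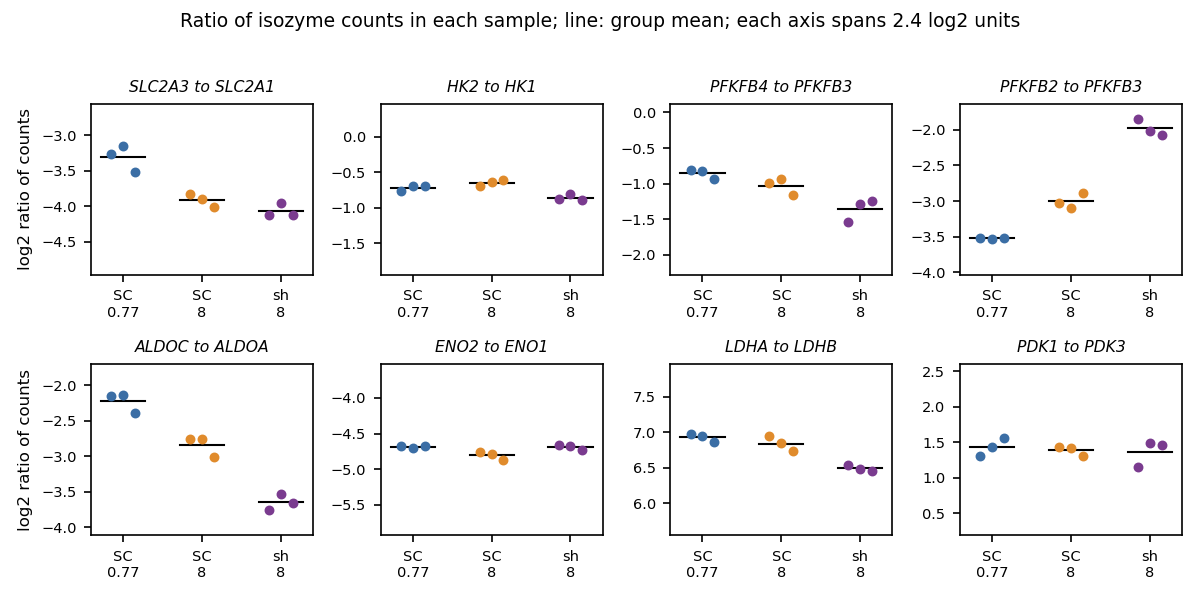
Log2 ratio of the counts of pairs of isozymes in each of the 9 samples (points) with group means (lines), for 0.77 cP SC cells, 8 cP SC cells and shTRPV4 cells. Each vertical axis spans the same range. The ratio of *ALDOC* to *ALDOA* steps down from -2.23 to -3.65 and that of *PFKFB2* to *PFKFB3* steps up from -3.52 to -1.98, whereas that of *PDK1* to *PDK3* overlaps in all groups. Levels of *ALDOA* and *LDHB*, and so of their ratios, are uncertain, since parts of their exons are shared with another gene.

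Against 0.77 cP SC cells, shTRPV4 cells differed in both hairpin and viscosity. In this comparison 29 of the 36 genes passed, 25 lower and 4 higher, where 42.4% of all genes tested passed, 22.0% lower and 20.4% higher, and the median log2 fold change was -0.36 beside -0.011 over all genes. The fall of *ALDOC* was 74.2% (-1.95 ± 0.13, adjusted p = 2.67e-08), that of *PFKFB4* was 57.0% (-1.22 ± 0.091, adjusted p = 9.42e-08), that of *SLC2A3* was 49.6% and that of *PGK1* was 41.1%. *PFKFB2* was 76.9% higher (0.82 ± 0.062, adjusted p = 1.02e-07), and *PDHA1* (0.19), *DLAT* (0.19) and *ENO3* (0.30) were the other genes that rose. *PFKM*, *HK1*, *BPGM*, *LDHB*, *SLC16A1*, *PDK2* and *PDHB* did not pass. Of the 29, 27 passed in each of the 9 leave-one-out fits. *GPI*, which fell by 0.13 (adjusted p = 0.0263), did not pass without replicate 1 or 3 of the 0.77 cP SC cells (adjusted p = 0.0691 and 0.122), replicate 2 or 3 of the 8 cP SC cells (adjusted p = 0.0586 and 0.0540) or replicate 2 of the shTRPV4 cells (adjusted p = 0.106). *ENO3* did not pass without replicate 1, 2 or 3 of the 0.77 cP SC cells (adjusted p = 0.0609, 0.111 and 0.0504) or replicate 2 of the shTRPV4 cells (0.20, adjusted p = 0.200).

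Samples of the 2 groups did not overlap and were lower at 8 cP for 16 of the 36 genes in the comparison of viscosity, where this held for 19.0% of all genes tested, and higher for 4, beside 19.4%. In the comparison of the knockdown, 26 genes were lower without overlap, beside 18.8%, and 4 were higher, beside 17.6%. When shTRPV4 cells were set against 0.77 cP SC cells, 27 were lower and 5 higher without overlap, beside 26.1% and 24.5%.

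Other genes of glucose metabolism, a list of 61 with further transporters and isozymes, the pyruvate carrier, glycogen breakdown, the pentose phosphate pathway and serine synthesis, held similar numbers of genes in both directions with viscosity. Of the 49 that were tested, 8 rose and 9 fell with viscosity (median 0.018) and 5 rose and 11 fell with the knockdown (median -0.0047). Of all genes tested, 9.57% rose and 9.69% fell with viscosity and 9.02% rose and 11.0% fell with the knockdown. Those with the smallest adjusted p were, with viscosity, *PPP1R3B*, a subunit that targets phosphatase to glycogen (-0.65 ± 0.086, adjusted p = 0.000203), the muscle glycogen phosphorylase *PYGM* (-2.66 ± 0.37, adjusted p = 0.000324, at only 5 to 105 counts in SC samples), the pyruvate and lactate transporter *SLC16A7* (0.44 ± 0.095, adjusted p = 0.00609) and pyruvate carboxylase, *PC* (-0.26 ± 0.059, adjusted p = 0.00838). With the knockdown they were *SLC16A7* (-0.81 ± 0.096, adjusted p = 3.31e-05), the glycogen phosphorylase *PYGB* (-0.28 ± 0.04, adjusted p = 0.000162), the glucose transporter *SLC2A12* (-0.56 ± 0.1, adjusted p = 0.00118) and *PPP1R3B* (-0.43 ± 0.088, adjusted p = 0.00275). *SLC16A7* rose with viscosity and fell with the knockdown, at 8.20 to 8.62 CPM, 10.5 to 13.2 CPM and 5.84 to 7.13 CPM in the 3 groups, which did not overlap.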

How the data were processed

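RNA of 9 samples was analysed, 3 per group, with groups and replicate numbers taken from the sample labels. The authors prepared strand-specific poly(A) libraries, aligned paired reads to GRCh38 with HISAT2 2.2.1, counted them per gene of Ensembl with HTSeq 0.13.5 and deposited the raw counts without normalization. The strand and overlap options of the counting are not given in the sources used here. Of 60664 genes, 60463 were matched to a symbol. Counts were scaled with TMM and tested with the quasi-likelihood test of edgeR 4.0.16 (R 4.3.3), with 1 coefficient per group over all 9 samples. The filter filterByExpr kept 18264 genes, and p-values were adjusted over these by the Benjamini-Hochberg method at a threshold of 0.05. Levels are counts per 1000000 (CPM), TMM-scaled, and between genes CPM per kilobase of exon (GENCODE). The sums of marker genes are counts per 1000000 of the library total, without TMM scaling. Library totals ran from 64571681 to 103518036, and the common biological coefficient of variation was 0.0633. Isozyme ratios used a pseudocount of 0.5 counts and an exact permutation test. The procedure was tested on simulated data.

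The members and the gene lists were chosen with earlier results of these data known. Of the marker and pathway lists beside the members, 3 genes are not reported here and were left out of the sums and counts. Values in every sample are given for the 14 members with the smallest adjusted p in either comparison at 8 cP and the most abundant member of each step with several genes. Of the other lists, the 4 genes with the smallest adjusted p per comparison are named. Alternatives were DESeq2 1.42.0, upper quartile scaling, no filter or a minimum of 10 counts per sample, fits of 6 samples, a block for the replicate number, pseudogene counts added to the parent gene, stricter thresholds, and leaving out each sample in turn.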

Additional observations from a re-analysis of the deposited data

How the results depend on the processing

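No direction of a member that passed reversed under any alternative run. With viscosity, 13 members passed. The alternatives of test, scaling, filter, samples, block and pseudogenes gave 12 to 16, where 11.1% to 26.6% of all genes passed (16 and 26.6% under DESeq2). An adjusted p below 0.01 left 5, where 7.65% of all genes passed. A minimum fold change of 0.5 on the log2 scale left 2, where 3.82% of all genes passed. Leaving out 1 sample gave 4 to 16, where 7.56% to 23.3% of all genes passed. With the knockdown, 26 passed, and the alternatives gave 25 or 26, where 11.3% to 22.9% of all genes passed. An adjusted p below 0.01 left 23, where 10.0% of all genes passed. The fold-change threshold of 0.5 left 4, where 5.25% of all genes passed. Leaving out 1 sample gave 23 to 25, where 11.7% to 20.5% of all genes passed. Between shTRPV4 and 0.77 cP SC cells, 29 passed, with 28 or 29 under the alternatives, where 21.9% to 47.8% of all genes passed. An adjusted p below 0.01 left 27 (30.0% of all genes) and the fold-change threshold left 13 (13.3%). In fits without 1 sample, 27 to 29 passed (34.0% to 41.3% of all genes). The cause of these shifts was not tested. Fits with 1 sample left out rest on fewer samples. The levels were given per kilobase of all annotated exons. Per kilobase of the longest transcript, *LDHA* stood above *GAPDH* (1502 and 1377 CPM per kb in SC cells at 0.77 cP) and *PKM* above *TPI1* (1295 and 819). By the same measure, *GPI* stood above *HK1* and *PFKL* (80.6, 67.5 and 55.9), *PDK2* above *PDK1* (5.85 and 4.55) and *ENO3* above *PFKFB2* and *PDK3*.

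The labels number the samples 1 to 3 in each group without saying what the number marks. Deviations from the group means of same-numbered SC samples correlated at 0.135, 0.0709 and 0.270 (numbers 1 to 3). Those of shTRPV4 samples correlated with 0.77 cP SC samples at -0.104, 0.0686 and -0.169, and with 8 cP SC samples at -0.0284, 0.0970 and -0.169. Among the 8 cP SC samples, each 0.77 cP SC sample correlated best with that of its own number. Whether same-numbered samples shared a batch cannot be told from these values. With the replicate number as a block, 12, 25 and 29 members passed in the 3 comparisons, where 19.0%, 19.7% and 42.3% of all genes passed. Calls lost were *TPI1* with viscosity (adjusted p = 0.0567) and *ENO3* with the knockdown (adjusted p = 0.0558), and not every sample correlated best with its own number.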

Other observations

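Genes that take pyruvate onward or respond to low oxygen were read beside the pathway. Of 12 genes known as targets of hypoxia-inducible factor and outside the 36, 8 fell and none rose with viscosity (median log2 fold change -0.23) and 10 fell and none rose with the knockdown (median -0.48), where 9.69% and 11.0% of all genes tested fell. With the knockdown the smallest adjusted p belonged to *P4HA1*, a collagen prolyl hydroxylase (-0.60 ± 0.062, adjusted p = 8.95e-06), the vasodilator peptide *ADM* (-0.46 ± 0.051, adjusted p = 1.57e-05), the carbonic anhydrase *CA9* (-1.31 ± 0.16, adjusted p = 4.06e-05) and the mitophagy receptor *BNIP3* (-0.63 ± 0.081, adjusted p = 6.9e-05). *CA9* was measured at 16.3, 16.4 and 12.4 CPM in 0.77 cP SC cells, 11.2, 11.0 and 7.64 CPM in 8 cP SC cells and 3.29, 3.86 and 4.85 CPM in shTRPV4 cells. Its 3 groups did not overlap. With viscosity the smallest adjusted p belonged to *ADM* (-0.25 ± 0.05, adjusted p = 0.00389), the oxygen-sensing hydroxylase *EGLN3* (-0.37 ± 0.078, adjusted p = 0.00502), *NDRG1* (-0.48 ± 0.11, adjusted p = 0.00635) and the histone demethylase *KDM3A* (-0.21 ± 0.05, adjusted p = 0.00939). Their part in the changes of the 36 genes was not tested.

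Of 20 tested genes of the citric acid cycle and of the shuttles that carry reducing equivalents into the mitochondrion, 4 rose and none fell with viscosity (median 0.029), and 1 rose and 4 fell with the knockdown (median -0.018), where 9.57% of all genes tested rose and 9.69% fell with viscosity and 9.02% rose and 11.0% fell with the knockdown. With viscosity the risers were *GOT2*, the mitochondrial aspartate aminotransferase (0.29 ± 0.063, adjusted p = 0.00622), fumarase, *FH* (0.26 ± 0.059, adjusted p = 0.00732), the glycerol phosphate shuttle enzyme *GPD2* (0.17 ± 0.041, adjusted p = 0.00981) and the dehydrogenase subunit *IDH3A* (0.23 ± 0.068, adjusted p = 0.0257). *GPD2* lay between 88.8 and 92.0 CPM in 0.77 cP SC cells, 100.5 and 103 CPM in 8 cP SC cells and 81.1 and 85.0 CPM in shTRPV4 cells, and was lower with the knockdown (-0.29 ± 0.041, adjusted p = 0.000148). Citrate synthase, *CS*, was the gene that rose with the knockdown (0.22 ± 0.063, adjusted p = 0.0237). These calls were not repeated with samples left out.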
